A study of Mus musculus with 12 samples.

Results

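Small leucine-rich proteoglycans (SLRPs) are secreted core proteins of the muscle connective tissue, and the mRNA levels of 9 of them, *Dcn*, *Bgn*, *Aspn*, *Lum*, *Fmod*, *Prelp*, *Omd*, *Ogn* and *Podn*, were examined in mouse tibialis anterior (TA) muscle. The members were chosen by name, through the NCBI Gene ID of each row of the count table. All 9 were among the 27179 genes listed, and all 9 were among the 15502 genes that passed the filter on low counts and were tested.

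An SLRP consists of a curved stack of leucine-rich repeats, and most members carry chondroitin, dermatan or keratan sulfate chains. The proteins bind fibrillar collagen and influence the spacing and width of its fibrils, and several bind growth factors of the TGF-β family. In skeletal muscle they are made mainly by fibroblastic cells and tenocytes of the connective tissue sheaths, and biglycan is also known from regenerating muscle. The family is divided into classes by gene structure and sequence: *Dcn*, *Bgn* and *Aspn* are class I, *Lum*, *Fmod*, *Prelp* and *Omd* class II, *Ogn* class III and *Podn* class V.

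The 12 muscles came from 6 wild-type male C57BL/6N mice, which were obtained at 6 to 8 weeks of age. One TA muscle of each mouse received 10 μg of the empty plasmid pcDNA3 (Control muscles), the other TA received 10 μg of the plasmid encoding the full-length human long noncoding RNA *FRAIL1* (*FRAIL1* muscles), and both were taken at day 7. All 12 muscles were injected with hyaluronidase and electroporated, and the CMV promoter that drives *FRAIL1* is not specific to a cell type. Polyadenylated RNA of whole muscle was sequenced, so each level is a sum over cell types, and more cells of a type cannot be told apart from more RNA per cell.

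Total counts ranged from 45018389 to 59309210 in Control and from 44848322 to 60527385 in *FRAIL1* muscles. Levels are given as CPM, the counts scaled to library size with TMM factors, and groups were compared with the quasi-likelihood test of edgeR, adjusted by the Benjamini-Hochberg method over all 15502 genes, at a threshold of 0.05. The test called 687 genes (4.43%) higher and 287 genes (1.85%) lower in *FRAIL1* muscles, and the median log2 fold change over all genes was 0.0096. These counts depended on single muscles: with 1 muscle left out, between 314 and 1228 genes were called higher and between 50 and 882 lower. The myofiber markers *Ckm*, *Acta1*, *Myh4*, *Myh1*, *Myh2*, *Tnnt3* and *Pvalb* summed to between 122025 and 145259 CPM in Control and between 95119 and 129371 CPM in *FRAIL1* muscles. *FRAIL1* muscle 5 stood apart from the rest, with the highest TMM factor (1.19, against 0.935 to 1.07 in the other 11 muscles), and values without it are given wherever it carried a result. *FRAIL1* itself, a human transcript, is not in the mouse count table and was not measured here.

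The 9 genes lie on 5 chromosomes of GRCm38, and 7 of them lie in clusters. *Dcn* (chr10:97479500-97518163) and *Lum* (chr10:97565501-97572703) are 47.3 kb apart, followed by the keratocan gene *Kera*. *Aspn* (chr13:49544443-49567565), *Omd* (chr13:49582462-49592612) and *Ogn* (chr13:49608015-49624501) follow each other at gaps of 14.9 and 15.4 kb. *Prelp* (chr1:133910304-133930102) and *Fmod* (chr1:134037254-134048280) are 107.2 kb apart with opposite strands. No other coding gene lies wholly within any of these gaps, and genes that reach across a gap were not counted. *Bgn* (chrX:73483601-73495936) and *Podn* (chr4:108014793-108031954) lie alone. For *Prelp*, 9.68% of the exonic bases overlap the antisense gene *Gm15851*, and for *Aspn* 0.297% overlap *Cenpp*. The sources used here do not say whether counting used the strand, so reads from these overlaps may be counted for either gene.

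Promoter sequences of RefSeq (GRCm38.p6, 250 bases before to 50 bases after the transcription start) were found for 7 of the 9 genes, with 2 for *Podn* and thus 8 in all. The promoters are shown for *Bgn*, the member that passed the test below, and for *Aspn* and *Ogn*, neighbours on chromosome 13 that reached their highest level in the same muscle. The windows are chrX:73483351-73483650 for *Bgn*, chr13:49544193-49544492 for *Aspn* and chr13:49607765-49608064 for *Ogn*, all on the plus strand and written 5′ to 3′. Capitals mark matches on either strand to a TATA box (TATAAA), a GC box (GGGCGG) or a CCAAT box (CCAAT).
Bgn: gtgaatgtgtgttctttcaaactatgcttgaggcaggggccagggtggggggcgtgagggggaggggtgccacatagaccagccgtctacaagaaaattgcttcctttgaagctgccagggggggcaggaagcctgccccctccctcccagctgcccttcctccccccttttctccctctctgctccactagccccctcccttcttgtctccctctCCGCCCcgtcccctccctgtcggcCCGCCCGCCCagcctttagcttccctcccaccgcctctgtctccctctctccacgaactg
Aspn: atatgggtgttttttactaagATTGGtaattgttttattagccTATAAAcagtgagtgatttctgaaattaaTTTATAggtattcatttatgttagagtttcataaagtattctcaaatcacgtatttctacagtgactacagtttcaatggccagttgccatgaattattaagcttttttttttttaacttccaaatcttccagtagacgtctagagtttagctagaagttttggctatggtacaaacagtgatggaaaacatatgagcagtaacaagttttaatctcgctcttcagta
Ogn: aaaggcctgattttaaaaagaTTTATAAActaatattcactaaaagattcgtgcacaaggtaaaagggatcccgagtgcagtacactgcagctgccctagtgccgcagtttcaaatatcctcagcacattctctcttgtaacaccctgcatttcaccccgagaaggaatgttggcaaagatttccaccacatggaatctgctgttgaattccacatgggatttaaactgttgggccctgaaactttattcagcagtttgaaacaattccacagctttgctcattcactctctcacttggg

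The *Bgn* window held 63.7% G and C and 9 CpG dinucleotides, and had 3 GC boxes, at positions -34, -10 and -6 from the transcription start, of which the last 2 overlap. The *Aspn* window held 31.0% G and C, 1 CCAAT box and 2 TATA boxes, at -207 and -178. The *Ogn* window held 42.3% G and C, and its 2 TATA matches are overlapping readings of 1 stretch on opposite strands. A GC box was present in 2 of the 8 SLRP promoters (*Bgn* and 1 of *Podn*) and in 35.7% of all 32851 promoters of this length. A TATA box was present in 2 of 8 (*Aspn* and *Ogn*) and in 13.6% of all, and a CCAAT box in 3 of 8 (*Prelp*, *Fmod* and *Aspn*) and in 37.4% of all. An E-box (CANNTG), which is not capitalised above, was found in 7 of 8 and in 72.3% of all, and an AP-1 site (TGANTCA) in 0 of 8 and in 7.81% of all. These are letter matches in a fixed window and do not show binding.

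Of the 9 genes, 1 rose, *Bgn*, and 0 fell at an edgeR adjusted p under 0.05, against 4.43% of all genes tested called higher and 1.85% called lower. With the replicate number as a block, again 1 of 9 was called higher and 0 lower, against 7.48% and 6.62% of all genes. Without adjustment, 2 of the 9 had a p-value under 0.05, *Bgn* and *Lum*. The median log2 fold change of the 9 was 0.15, and 8 of 9 were positive, compared with a median of 0.0096 and 51.6% positive over all genes tested. The share of genes whose 6 *FRAIL1* values all lay above the 6 Control values was 1 of 9, against 3.12% of all genes tested. A single gene of 9 is close to what these background shares give, so the counts are no result about the family as a group.

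*Bgn* encodes biglycan, a class I proteoglycan with a pair of chondroitin or dermatan sulfate chains that binds collagen and, in muscle, the dystrophin-associated complex. In Control muscles *Bgn* measured 59.5 CPM at the lowest, 68.2 at the median and 74.3 at the highest. In *FRAIL1* muscles it measured 86.4, 119 and 203 CPM. Every *FRAIL1* muscle was thus above every Control muscle, and muscle 5 was the highest. The group means were 67.2 ± 5.91 CPM (SD, n = 6) and 130 ± 40.9 CPM (SD, n = 6). This is a log2 fold change of 0.95 (standard error, SE, 0.167, edgeR adjusted p = 0.0111), or 1.93-fold with a 95% interval from 1.504 to 2.48. In 6 of 6 mice *Bgn* was higher on the *FRAIL1* side, by 1.41-fold in mouse 3 to 3.07-fold in mouse 5. It passed the threshold in 24 of 24 alternative settings, with log2 fold changes from 0.75 to 1.04 and an adjusted p of at most 0.0311. Without *FRAIL1* muscle 5 the mean was 115 ± 21.5 CPM (SD, n = 5), the log2 fold change was 0.77, and the adjusted p by edgeR was 0.00155. The Control muscles were more alike for *Bgn* than for any other member, with a coefficient of variation of 8.80% against 15.04% to 38.8% for the rest.

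**Figure D1:**
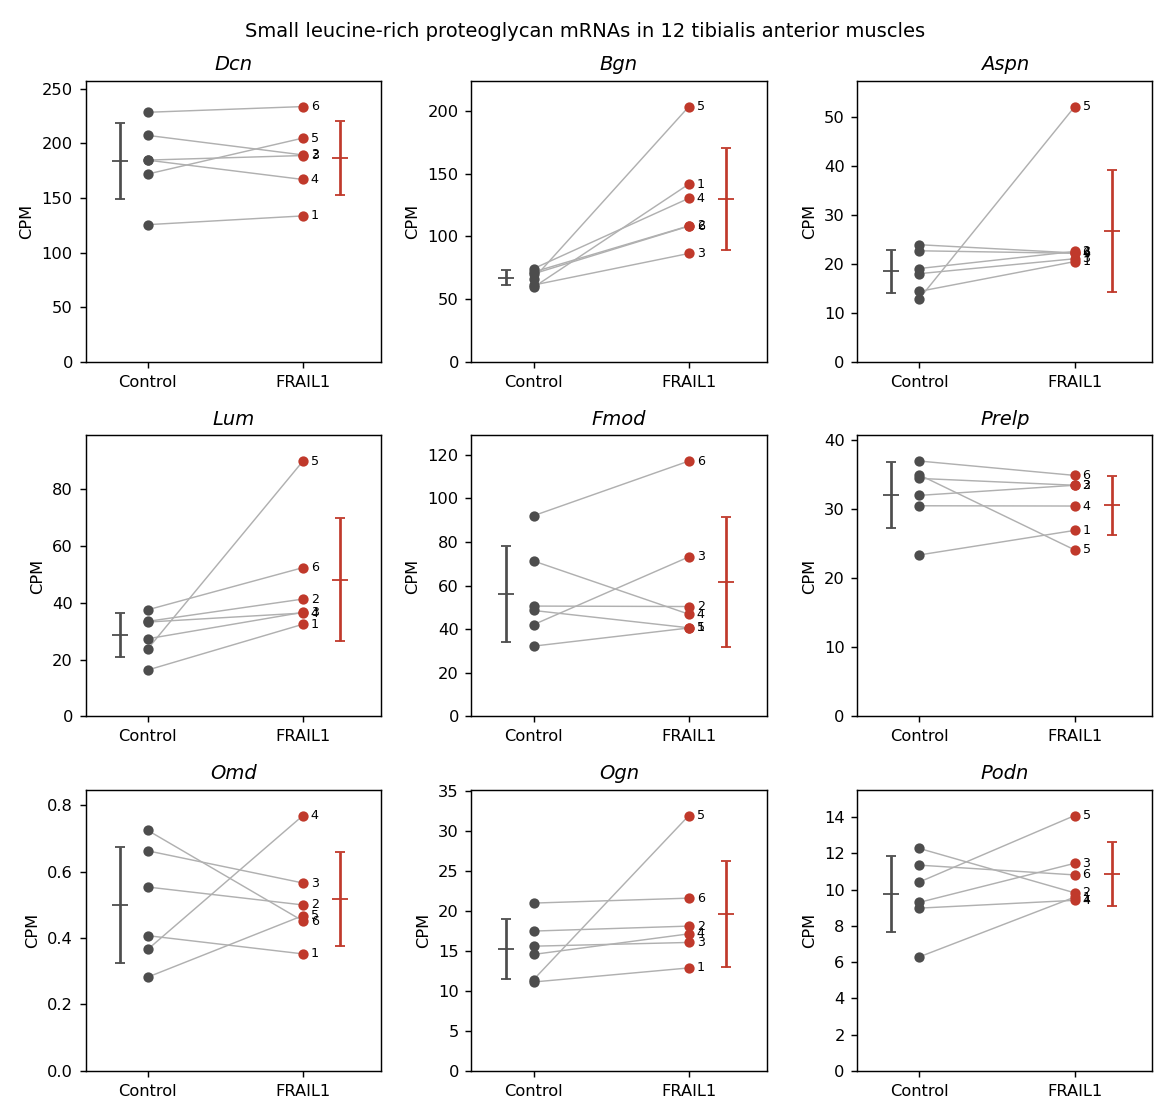
Level of each of the 9 SLRP mRNAs (CPM, linear axis from 0) in the 6 Control (grey) and 6 *FRAIL1* (red) muscles. Points are muscles, grey lines join the muscles that share a replicate number, numbers name the *FRAIL1* muscle, and bars at the sides give the mean and SD (n = 6). For *Bgn* the *FRAIL1* muscles start at 86.4 CPM, above the highest Control muscle at 74.3 CPM, whereas for the other 8 genes the groups overlap.

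The other class I members did not pass the test. *Dcn* encodes decorin, which binds collagen fibrils and TGF-β and had the highest level per length of the 9. It measured 126, 185 and 229 CPM (lowest, median and highest) in Control and 134, 189 and 234 CPM in *FRAIL1* muscles. The ranges nearly coincided, with means of 184 ± 34.9 CPM (SD, n = 6) and 186 ± 33.9 CPM (SD, n = 6). The fold change was 1.01 with a 95% interval from 0.820 to 1.25, and the edgeR adjusted p was 0.948. An increase as large as that of *Bgn* thus lay outside the interval for *Dcn*.

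*Aspn* encodes asporin, a class I member that binds collagen and TGF-β but carries no glycosaminoglycan attachment site of the usual kind. It measured 12.95, 18.6 and 23.96 CPM (lowest, median and highest) in Control and 20.5, 22.2 and 52.2 CPM in *FRAIL1* muscles. The highest value, in *FRAIL1* muscle 5, was the single one above the Control range, and the next was 22.6 CPM. The log2 fold change was 0.53 (SE 0.251, edgeR adjusted p = 0.189), and 0.23 without muscle 5. The 5 *FRAIL1* muscles other than muscle 5 were close to each other, at 21.7 ± 0.886 CPM (SD, n = 5), compared with 18.5 ± 4.37 CPM (SD, n = 6) in Control muscles.

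Among the class II members, most of which carry keratan sulfate or tyrosine sulfate, *Lum* came nearest to the threshold. *Lum* encodes lumican, a regulator of collagen fibril width. It measured 16.3, 30.2 and 37.4 CPM (lowest, median and highest) in Control and 32.4, 38.9 and 89.7 CPM in *FRAIL1* muscles. Of the 6 *FRAIL1* muscles, 3 lay above the highest Control muscle, and muscle 5 was the highest. Means were 28.5 ± 7.74 and 48.1 ± 21.5 CPM (SD, n = 6 each), with a log2 fold change of 0.75 (SE 0.270, edgeR adjusted p = 0.102). Before adjustment the p-value of this edgeR test was 0.0164. The *FRAIL1* muscle was the higher one in 6 of 6 mice. Without muscle 5 the log2 fold change was 0.48 (adjusted p = 0.209 by edgeR). The gene passed the threshold in 2 of 24 alternatives, both with the replicate block: DESeq2's Wald test (adjusted p = 0.0440) and edgeR without both muscles numbered 5 (adjusted p = 0.0438). Over the 24 alternatives its adjusted p ranged from 0.0438 to 0.293.

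*Fmod*, *Prelp* and *Omd* gave no call in any of the 24 alternatives. *Fmod* encodes fibromodulin, a tendon proteoglycan that competes with lumican for a site on collagen. Its levels were 32.2, 49.6 and 92.0 CPM (lowest, median and highest) in Control and 40.6, 48.6 and 117 CPM in *FRAIL1* muscles. The muscles numbered 6 were the highest of their group in both groups, and the log2 fold change was 0.13 (SE 0.315, edgeR adjusted p = 0.822), with a fold interval from 0.680 to 1.76. *Prelp*, whose protein links basement membranes to the matrix, measured 23.4, 33.2 and 36.9 CPM in Control and 24.1, 31.9 and 34.9 CPM in *FRAIL1* muscles. It was the single member with a negative log2 fold change, -0.068 (SE 0.111, edgeR adjusted p = 0.727), and its fold interval ran from 0.809 to 1.12. *Omd* encodes osteomodulin, a proteoglycan known mainly from bone and tooth, and was close to the lower end of detection with 12 to 38 counts per muscle. It measured 0.282 to 0.724 CPM in Control and 0.352 to 0.768 CPM in *FRAIL1* muscles, with a fold interval from 0.688 to 1.55 (adjusted p = 0.930 by edgeR), which includes a change of 1.5-fold.

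*Ogn*, the class III member, encodes osteoglycin or mimecan, a small keratan sulfate proteoglycan of connective tissue. It measured 11.1, 15.1 and 21.0 CPM (lowest, median and highest) in Control and 12.9, 17.6 and 31.9 CPM in *FRAIL1* muscles. The groups overlapped apart from *FRAIL1* muscles 5 and 6, which lay above the Control range. In 6 of 6 mice *Ogn* was higher on the *FRAIL1* side, by between 1.03-fold and 2.80-fold, yet the log2 fold change was 0.37 (SE 0.215, edgeR adjusted p = 0.287) and 0.17 without muscle 5. *Podn*, the class V member, encodes podocan, which binds collagen I. It measured 6.29, 9.85 and 12.3 CPM in Control and 9.40, 10.3 and 14.1 CPM in *FRAIL1* muscles, and its log2 fold change was 0.15 (SE 0.143, edgeR adjusted p = 0.515).

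**Figure D2:**
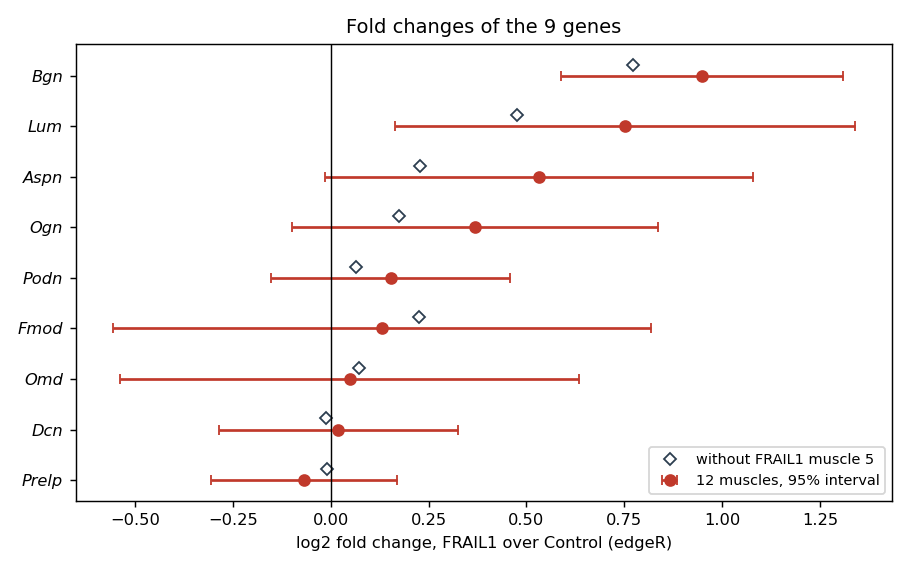
log2 fold change of each SLRP gene between 6 *FRAIL1* and 6 Control muscles (edgeR), with 95% intervals as bars. Open diamonds give the value without *FRAIL1* muscle 5. *Bgn* (0.95) and *Lum* (0.75) have intervals above 0, and that of *Aspn* reaches 0. The diamonds of *Aspn* (0.23), *Lum* (0.48) and *Ogn* (0.17) lie well below their 12-muscle values, and that of *Bgn* is at 0.77.

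Single muscles set the ends of the ranges. *FRAIL1* muscle 5 had the highest of the 12 values for 5 members, *Bgn*, *Aspn*, *Lum*, *Ogn* and *Podn*, and Control muscle 1 had the lowest for 7. Against Control muscle 5, *FRAIL1* muscle 5 held 4.03-fold more *Aspn*, 3.79-fold more *Lum*, 3.07-fold more *Bgn* and 2.80-fold more *Ogn* mRNA. In the same pair *Omd* was at 1.66-fold, *Podn* at 1.35-fold and *Dcn* at 1.19-fold, and *Prelp* and *Fmod* were at 0.689-fold and 0.836-fold. Members of the same class (*Dcn* beside *Bgn* and *Aspn*, *Fmod* beside *Lum*) and neighbours on a chromosome (*Dcn* and *Lum*) thus differed within this pair. *Aspn*, *Omd* and *Ogn* of chromosome 13 were among the 7 of 9 members above 1, with *Omd* the lowest of these neighbours. The SLRP relative *Ecm2*, next to *Aspn*, did not rise, at 18.2 CPM in Control and 17.9 CPM in *FRAIL1* muscle 5. *Omd* had few counts and was below 1 in pairs 1, 2, 3 and 6. In the other 5 pairs the ratio of *Aspn* lay between 0.930 and 1.42 and that of *Ogn* between 1.03 and 1.18. The median log2 ratio over the 9 genes was 0.73 in pair 5, 0.33 in pair 1, 0.22 in pair 3 and between -0.0057 and 0.068 in the other 3 pairs.

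**Figure D3:**
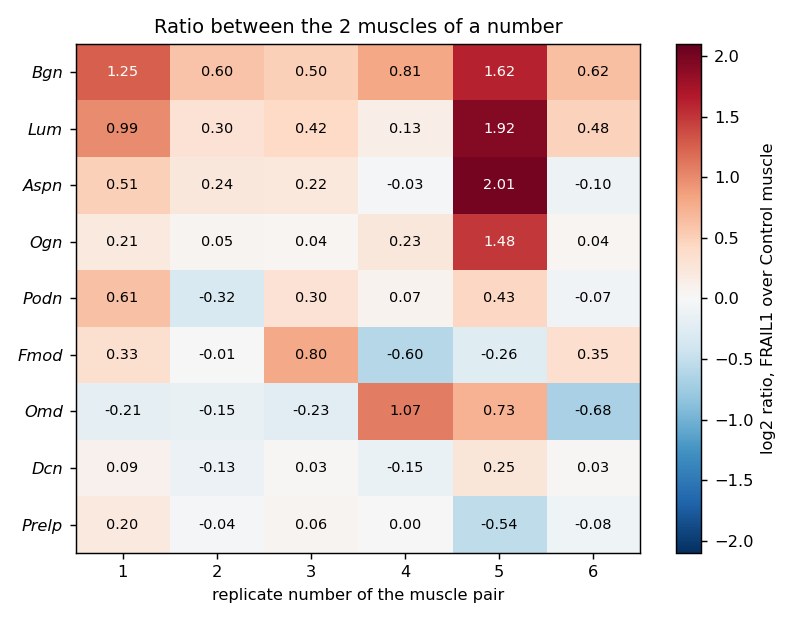
log2 ratio of CPM between the *FRAIL1* and the Control muscle of each replicate number (columns) for the 9 genes (rows, ordered by fold change). Red is higher and blue is lower in the *FRAIL1* muscle, and the number in each cell is the log2 ratio. The *Bgn*, *Lum* and *Ogn* rows are positive in all 6 columns, and the deepest cells are *Aspn* (2.01) and *Lum* (1.92) in column 5.

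To see whether members moved by another amount than decorin, each was divided by *Dcn* within a muscle and the log2 ratios were compared by an exact permutation test over every assignment of 6 of the 12 muscles, two-sided and adjusted over the 8 ratios. The ratio of *Lum* to *Dcn* rose 1.61-fold, from a range of 0.130 to 0.179 in Control to 0.194 to 0.438 in *FRAIL1* muscles, which did not overlap (exact permutation p = 0.00216, the smallest this design allows, adjusted p = 0.0173). The ratio of *Bgn* to *Dcn* rose 1.84-fold, with ranges of 0.307 to 0.473 and 0.457 to 1.06 (exact permutation p = 0.00649, adjusted p = 0.0231). The ratio of *Ogn* to *Dcn* rose 1.25-fold (exact permutation p = 0.00866, adjusted p = 0.0231). In absolute CPM, *Lum* and *Ogn* had not passed the test across all genes. That test differs in kind and was adjusted over 15502 genes, so the contrast does not show a change particular to the ratio. Since *Dcn* itself was at 1.01-fold, the log2 differences in ratio (0.69 and 0.32) were near the log2 fold changes of *Lum* (0.75) and *Ogn* (0.37). The ratio of *Aspn* to *Dcn* in *FRAIL1* muscles was at 1.37-fold of that in Control (exact permutation p = 0.0541, adjusted p = 0.108, and adjusted p = 0.0433 without *FRAIL1* muscle 6), and those of *Fmod*, *Prelp*, *Omd* and *Podn* lay between 0.941-fold and 1.11-fold, with adjusted p from 0.377 to 0.803 by the exact permutation test. Exact sign flips of the 6 differences within mice cannot go below p = 0.0312, so that 6 of the 8 ratios would have to reach this value for any to pass after adjustment. Those of *Lum*, *Bgn* and *Ogn* reached it (adjusted p = 0.0833), and each was higher in 6 of 6 mice. Without both muscles numbered 5 the exact permutation test cannot go below p = 0.00794, which becomes 0.0635 after adjustment if 1 ratio alone reaches it, and 0 of 8 passed. *Lum* was at this floor, with a log2 difference of 0.49 in place of 0.69. The log2 difference of *Bgn* was 0.78 in place of 0.88, and that of *Ogn* 0.14 in place of 0.32 (adjusted p = 0.0847 for both by the exact permutation test).

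**Figure D4:**
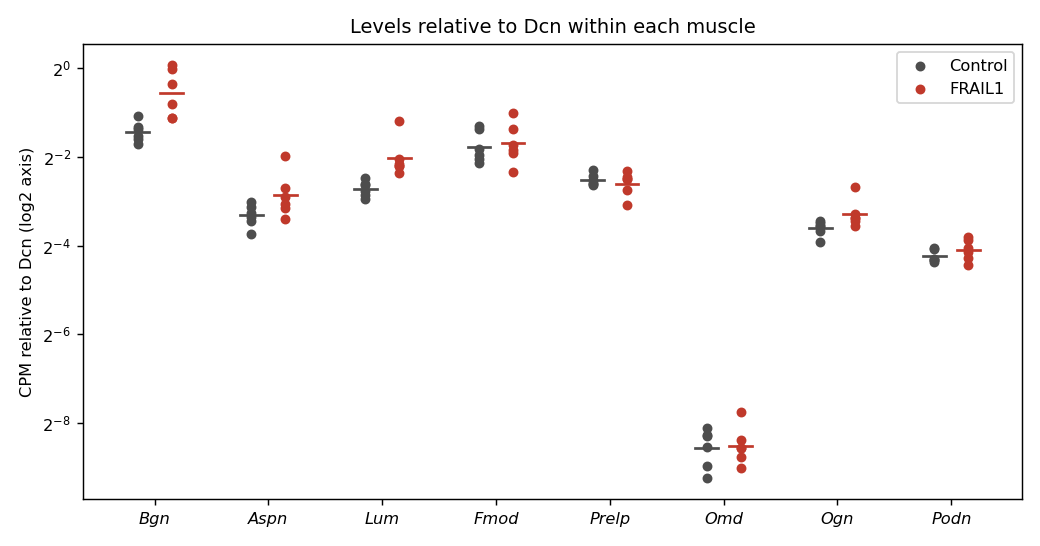
CPM of each of 8 SLRP genes divided by the CPM of *Dcn* in the same muscle, on a log2 axis. Points are the 6 Control (grey) and 6 *FRAIL1* (red) muscles, and lines are geometric means. The *Lum* groups do not overlap (0.130 to 0.179 against 0.194 to 0.438), and the *Bgn* groups overlap only narrowly (0.307 to 0.473 against 0.457 to 1.06).

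Per length of exon sequence, decorin mRNA was the leading member in Control muscles at 31.5 ± 5.97 CPM per kb (SD, n = 6), followed by *Fmod* at 17.0 ± 6.59. *Lum* (11.7 ± 3.16), *Bgn* (11.02 ± 0.969), *Prelp* (8.86 ± 1.33), *Aspn* (7.87 ± 1.86) and *Ogn* (5.92 ± 1.46) came next, and from *Dcn* to *Ogn* the ranges of neighbours in this order overlapped. *Podn* (2.29 ± 0.492) and *Omd* (0.222 ± 0.0779) were last, with ranges below those of the genes before them. In *FRAIL1* muscles *Bgn* stood at 21.3 ± 6.70 and *Lum* at 19.6 ± 8.79 CPM per kb, beside *Fmod* at 18.6 ± 9.01. *FRAIL1* muscle 5 weighed on these means, with 33.3 for *Bgn*, 36.6 for *Lum* and 12.3 for *Fmod*, so their order is not a result. As a share of the summed level per kb of the 9 genes, *Dcn* made up 32.8 ± 1.86% (SD, n = 6) in Control and 26.5 ± 3.03% in *FRAIL1* muscles. *Bgn* made up 11.7 ± 1.82% and 17.7 ± 4.81%, and *Lum* 11.96 ± 1.17% and 15.7 ± 3.46%. The shares of 1 muscle add up to a whole, so they are not independent of each other. The summed level of the 9 genes ranged from 289 to 522 CPM in Control and from 418 to 661 CPM in *FRAIL1* muscles.

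Across muscles most members varied together, and how *Bgn* varied with them depended on which muscles were taken. These correlations are descriptions, since each point is a muscle of 1 of 6 mice and shares its library, depth and connective tissue content across genes. In the 10 muscles without number 5, after removing the group means, Pearson's r between log2 CPM values was 0.602 to 0.965 (median 0.813) over the 21 pairs that hold neither *Bgn* nor the sparsely counted *Omd*. The closest pair was *Dcn* and *Prelp* (0.965). For the 8 pairs with *Bgn*, r lay between -0.156 and 0.349 (median -0.065). In the 6 Control muscles alone, the pairs with *Bgn* had a median r of 0.658, compared with 0.758 over the 28 pairs without it. With all 12 muscles the pairs with *Bgn* ranged from -0.458 to 0.741 (median 0.226), highest for *Aspn* (0.741) and *Lum* (0.627), and the 28 pairs without it from -0.242 to 0.936 (median 0.426).

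The 10 other genes whose deviations from the group means were most like the mean deviation of the 9 members, over 12 muscles, were *Cygb* (r = 0.945), *Galnt16* (0.943), *Arhgef40* (0.926), *Matn4* (0.925), *2700081O15Rik* (0.921), *Mmp2* (0.920), *Serpinf1* (0.920), *Cpxm2* (0.918), *Pls3* (0.918) and *Jcad* (0.915). Cytoglobin, matrilin 4, the gelatinase MMP2 and the secreted serpin PEDF, encoded by *Cygb*, *Matn4*, *Mmp2* and *Serpinf1*, are known from fibroblasts and extracellular matrix. Between the groups, their adjusted p-values ranged from 0.0626 for *Mmp2* (log2 fold change 0.57) to 0.969 for *Jcad* (-0.0088) by edgeR. Without the muscles numbered 5 the correlations of these 10 genes were 0.898 to 0.966.

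The remaining SLRP genes and relatives were *Ecm2*, *Kera*, *Epyc*, *Optc*, *Chad*, *Chadl*, *Nyx*, *Tsku* and *Podnl1*. Of these 9, 6 were tested and 0 passed in either direction by edgeR, DESeq2 or limma, with 1 at an unadjusted p under 0.05. That gene was *Tsku*, encoding tsukushi, which measured 1.78 ± 0.448 CPM in Control and 2.65 ± 0.970 CPM in *FRAIL1* muscles (SD, n = 6; log2 fold change 0.57, adjusted p = 0.120). *Epyc* had 0 counts in all 12 muscles. *Ecm2*, next to *Aspn* on chromosome 13, measured 17.3 ± 2.703 and 16.4 ± 1.97 CPM, and *Kera*, next to *Lum*, 3.66 ± 1.92 and 4.35 ± 2.18 CPM (SD, n = 6 each). As for *Fmod*, the muscles numbered 6 had the highest *Kera* and *Chad* values of their group.

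The enzymes that build and sulfate the chains on SLRP core proteins were represented by 29 genes, of which 26 were tested. Of these, 2 rose and 0 fell, against 4.43% and 1.85% of all genes tested. A count this near to the shares over all genes is no result about the enzymes as a group. Their median log2 fold change was 0.26. The genes that rose encode chondroitin polymerizing factors: *Chpf* went from 9.81 ± 1.29 to 16.7 ± 6.06 CPM (SD, n = 6; log2 fold change 0.77, adjusted p = 0.0320 by edgeR) and *Chpf2* from 19.1 ± 1.53 to 23.1 ± 2.37 CPM (log2 fold change 0.27, adjusted p = 0.0462). The xylosyltransferases and other linker enzymes of the list gave no call. In the list, 0 of the 26 passed when Control muscle 1, 2, 3, 4 or 6 or *FRAIL1* muscle 1 was left out, and 6 passed without *FRAIL1* muscle 3. Over all genes the number called higher was 314 to 413 in the former settings and 1228 in the latter. With 1 muscle left out, the log2 fold change stayed at 0.54 to 0.84 for *Chpf* and 0.24 to 0.31 for *Chpf2*. Without *FRAIL1* muscle 5 *Chpf* alone was called.

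Of the 10 collagen genes whose products SLRPs bind, 2 rose and 0 fell, against 4.43% and 1.85% of all genes tested. All 10 had positive log2 fold changes, with a median of 0.82 (0.55 without *FRAIL1* muscle 5). *Col5a2*, a chain of the collagen that nucleates fibrils, measured 67.4 ± 9.49 CPM in Control and 125 ± 50.2 CPM in *FRAIL1* muscles (SD, n = 6; log2 fold change 0.90, adjusted p = 0.0286 by edgeR). *Col1a2*, a chain of collagen I, measured 426 ± 99.9 and 752 ± 282 CPM (log2 fold change 0.82, adjusted p = 0.0472 by edgeR), and with the replicate block its adjusted p was 0.0642. It was not called without *FRAIL1* muscle 5, and passed in 3 of the 12 fits with 1 muscle left out. Unlike *Bgn*, the list depended on the test, with 9 of 10 called by limma voom and 8 by DESeq2. With 1 muscle left out, 0 were called without Control muscle 1, 3, 4 or 5 or *FRAIL1* muscle 1 (314 to 409 genes higher over all genes), 5 without *FRAIL1* muscle 2 or 5, and 7 without *FRAIL1* muscle 3 (1228 over all genes). The log2 fold change then stayed at 0.64 to 0.98 for *Col5a2* and 0.59 to 0.93 for *Col1a2*. The collagen sum ranged from 1368 to 2584 CPM in Control and from 2757 to 7224 CPM in *FRAIL1* muscles. The highest *FRAIL1* sum was 3679 CPM without muscle 5, and the groups did not overlap with or without it.

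Receptors and growth factors known to bind SLRPs numbered 19, of which 18 were tested. Of these, 4 rose and 0 fell, against 4.43% and 1.85% of all genes tested (median log2 fold change of the list 0.23). *Tgfb1*, encoding the TGF-β1 that decorin and biglycan bind, went from 11.1 ± 1.40 to 17.8 ± 3.95 CPM (SD, n = 6; log2 fold change 0.68, adjusted p = 0.0149 by edgeR). *P2rx7*, an ATP-gated channel that takes part in biglycan signalling, went from 4.18 ± 0.450 to 5.80 ± 1.13 CPM (log2 fold change 0.47, adjusted p = 0.0477). The endocytic receptor gene *Lrp1* (0.40, adjusted p = 0.0348) and *Tgfb3* (0.29, adjusted p = 0.0477) rose by less on the log2 scale. Without *FRAIL1* muscle 5 *P2rx7* and *Lrp1* were not called. The toll-like receptor genes *Tlr2* and *Tlr4*, the other known receptors of soluble biglycan, were not called (adjusted p = 0.0507 and 0.0788 by edgeR), and with the replicate block *Tlr2* passed at 0.0275. With the block the list held 6 calls higher and 2 lower, against 7.48% and 6.62% of all genes. Its count was 1 when Control muscle 1, 3, 4, 5 or 6 or *FRAIL1* muscle 1 or 4 was left out, 2 without Control muscle 2 or *FRAIL1* muscle 5 or 6, 7 without *FRAIL1* muscle 2 and 11 without *FRAIL1* muscle 3, while *Tgfb1* was called in 12 of 12.

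Of 13 genes for proteases and their helpers that process or cleave SLRPs, 12 were tested. Of these, 2 rose and 1 fell, against 4.43% and 1.85% of all genes tested (median log2 fold change of the list 0.47). *Mmp3*, encoding stromelysin 1, went from 2.33 ± 0.497 to 5.09 ± 1.92 CPM (SD, n = 6; log2 fold change 1.12, adjusted p = 0.0124 by edgeR). *Mmp14*, encoding a membrane-bound metalloproteinase, went from 43.0 ± 5.83 to 83.7 ± 35.0 CPM (log2 fold change 0.96, adjusted p = 0.0326). *Adamts1*, encoding an aggrecan- and versican-cleaving protease, fell from 46.0 ± 6.01 to 34.7 ± 4.23 CPM (log2 fold change -0.41, adjusted p = 0.0221) and was lower in 6 of 6 mice. With 1 muscle left out, *Mmp3* passed in 12 of 12 fits, *Adamts1* in 10 and *Mmp14* in 4. The list held 1 call without *FRAIL1* muscle 1 and 1 without *FRAIL1* muscle 4, where *Mmp3* still passed. With the replicate block 4 were higher and 2 lower. Of 25 genes for proteoglycans outside the family, 24 were tested, and 1 rose, near the share of 4.43% over all genes tested. This gene, *Sdc2*, encoding the heparan sulfate proteoglycan syndecan 2, went from 17.8 ± 2.85 to 27.8 ± 7.63 CPM (log2 fold change 0.64, adjusted p = 0.0351 by edgeR). None of the 24 was called when any 1 of 5 Control muscles (all but 6) or *FRAIL1* muscle 1 or 6 was left out, while 2 were called without Control muscle 6, 3 without *FRAIL1* muscle 2, 4 without *FRAIL1* muscle 3 and 4 with the replicate block. The median of this list was 0.11. Without *FRAIL1* muscle 5 the medians were 0.14 for the chain enzymes, 0.15 for the receptors and growth factors, 0.29 for the proteases and 0.054 for the other proteoglycans.

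Markers of cell types that make or accompany SLRPs were read beside these values, and their part in them was not tested. Over all genes tested, 4.43% were called higher and 1.85% lower, and with the replicate block 7.48% and 6.62%. Fibro-adipogenic progenitor markers gave 0 calls among 10 genes by edgeR, with 2 at an unadjusted p under 0.05, and their sum ranged from 284 to 422 CPM in Control and from 377 to 578 CPM in *FRAIL1* muscles (418 at most without muscle 5, when *Mfap5* alone was called). Tenocyte markers rose in 2 of 6 genes, *Scx* (log2 fold change 0.59, adjusted p = 0.0102 by edgeR) and *Thbs4* (0.78, adjusted p = 0.0431), and summed to 115 to 224 CPM in Control and 196 to 382 CPM in *FRAIL1* muscles. Without muscle 5 *Scx* alone was called. Of the cartilage and bone markers 5 of 8 were tested and *Sox9* rose, from a low level (4.26 ± 0.680 to 6.91 ± 1.72 CPM, SD, n = 6), and with the replicate block also *Sp7*. The markers of satellite cells and regenerating fibers moved most, with 5 of 8 called higher, *Myog*, *Myh3*, *Myh8*, *Mymk* and *Mymx*, and a sum of 169 to 219 CPM in Control against 332 to 1563 CPM in *FRAIL1* muscles, where muscle 5 was the highest and the next was at 664. With the replicate block all 8 were called higher, adding *Pax7*, *Myf5* and *Myod1*. Macrophage markers rose in 2 of 10 genes, *Cx3cr1* and *Lgals3*, with a sum of 241 to 376 CPM in Control and 319 to 862 CPM in *FRAIL1* muscles. With the block 7 of 10 were called, adding *Adgre1*, *Csf1r*, *Lyz2*, *C1qa* and *C1qb*. Endothelial markers fell in 2 of 7 genes, *Tek* and *Flt1*, with a sum of 367 to 404 CPM in Control and 279 to 357 CPM in *FRAIL1* muscles, and *Pecam1* was also called lower without muscle 5. Of the myofiber markers, 1 of 7, *Ckm*, fell (log2 fold change -0.38, adjusted p = 0.0482 by edgeR). *Myh4* was below the Control range in every *FRAIL1* muscle (log2 fold change -0.43, adjusted p = 0.0548) and was called with the block and without muscle 5. Smooth muscle and pericyte (7 genes), adipocyte (4 of 5 tested), Schwann cell (6 genes) and lymphocyte (6 of 7 tested) markers gave 0 calls by edgeR, with 3, 2, 1 and 0 genes at an unadjusted p under 0.05. With the block *Rgs5* and *Kcnj8* of smooth muscle and pericytes and *Fabp4* of adipocytes were called lower and *Cd4* of lymphocytes higher, and 0 of the Schwann cell markers were called. *Fabp4* was also called without muscle 5. With 1 muscle left out, edgeR called *Ckm* in 3 of 12 fits, *Thbs4* in 4, *Lgals3* in 4 and *Flt1* in 5. The other markers called with all 12 muscles and no block passed in 10 to 12 of these fits.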

How the data were processed

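After trimming with Trimmomatic, the authors aligned paired-end reads to mm10 (STAR 2.7.8a), counted those at annotated genes (featureCounts 2.0.1) and deposited raw counts per gene and muscle without normalization. Genes were filtered with filterByExpr, scaled by TMM and compared with edgeR 4.0.16 (robust quasi-likelihood test, R 4.3.3). Of 27179 Gene IDs, 25275 matched a symbol in the GRCm38 annotation. No library was a copy of another (chi-square per degree of freedom of at least 15.4 between any pair of a group). Ratios to *Dcn* were compared with scipy 1.17.1. On simulated counts (15371 genes tested), the test recovered 78% of 100 genes changed by 1 and 44% of 100 changed by 0.5 on the log2 scale, with 4 false calls among 126. The simulated counts were independent between muscles and between genes and held no outlying muscle, so these rates may not hold for the data.

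The members and the gene lists were chosen with earlier results of these data known. Genes were named by rule: the members, up to 5 called genes of each list in each direction, and the 10 genes most like the members. The further relatives and neighbours given with values (*Tsku*, *Ecm2*, *Kera*, *Chad*, *Tlr2*, *Tlr4*) and markers called only in an alternative were chosen after their values were seen.

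Muscles of 1 replicate number were treated as those of 1 mouse, since each mouse gave 1 muscle to either group, although the labels do not tie the number to the animal. The correlation of deviations from the group means over the genes tested was 0.322, 0.197, 0.350, 0.321, 0.0723 and 0.228 for numbers 1 to 6. The highest correlation of the Control muscle with a *FRAIL1* muscle of another number was 0.183, 0.147, 0.108, 0.140, 0.251 and 0.184. For number 5 it exceeded the correlation within the number, so this pairing is uncertain. Statements on mouse or pair 5 and on 6 of 6 mice rest on it. Alternatives were the replicate block, other scalings, filters and tests (DESeq2 1.42.0, limma 3.58.1), and muscles left out.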

Additional observations from a re-analysis of the deposited data

Results flagged for a closer look

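*Aspn* and *Lum* each had 1 *FRAIL1* muscle far from the other 5. *FRAIL1* muscle 5 measured 52.2 CPM for *Aspn*, with the next muscle at 22.6 CPM, so that this gap took up 0.935 of the range of the group. The same muscle measured 89.7 CPM for *Lum*, with the next at 52.3 CPM and a gap of 0.653 of the range. Both gaps exceed the critical value of Dixon's test for 6 samples. Of the 18 groups examined (9 genes in each of 2 conditions), 2 were picked out in this way, and chance picks out about 5% of groups. Both picks were the same muscle, and *Aspn* and *Lum* varied together (r = 0.89 over 12 muscles after removing the group means). The 2 picks are thus not independent, and their number cannot be set against this 5%.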

How the results depend on the processing

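*Bgn* was called higher in every one of the 24 alternatives run. The number of the 9 members called was 2 in DESeq2's Wald test with the replicate block and in edgeR with the replicate block without both muscles numbered 5, where *Lum* joined it, and 1 in the other 22. Over all 12 muscles the replicate block changed no call of a member in edgeR. The median log2 fold change of the members was 0.053 to 0.33 when 1 muscle was left out. The number of *Dcn* ratios past the threshold was 3 to 4 when 1 muscle was left out, 0 with sign flips over mice (the replicate block) and 0 without both muscles numbered 5, where the smallest p-values these tests allow (0.0312 and 0.00794) leave little room below the adjusted threshold.

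Directions of uncalled members turned. For *Dcn* the log2 fold change was -0.023 by voom, -0.031 without both muscles numbered 5 (-0.027 with the block) and -0.070 to 0.097 with 1 muscle left out. *Fmod* ranged from -0.16 to 0.33 and *Omd* from -0.096 to 0.18 with 1 left out, and without both muscles numbered 5 *Omd* was at -0.042 (-0.048 with the block) and *Prelp* at 0.015 (0.024 with the block). The log2 ratios to *Dcn* ranged, with 1 left out, from -0.083 to 0.17 for *Omd*, -0.15 to 0.010 for *Prelp* and -0.060 to 0.21 for *Fmod*. *Omd* was at -0.0010 with 1 CPM added and -0.015 without both muscles numbered 5, where *Prelp* was at 0.053.

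The gene lists moved more. With the replicate block 1 collagen, 8 receptors and growth factors, 6 proteases and 4 other proteoglycans were called, and without a filter 1 chain enzyme, 1 collagen, 2 receptors and 0 other proteoglycans. DESeq2 called 4 chain enzymes, 8 collagens, 11 receptors, 5 proteases and 4 other proteoglycans, and with the block 5, 5, 11, 10 and 5. Voom called 9 collagens, 9 receptors, 5 proteases and 3 other proteoglycans. Collagens came to 5 with at least 10 counts in every muscle and 7 in the fit that was not robust. Without both muscles numbered 5, 1 receptor was called, and with the block 9 receptors and 4 other proteoglycans. With 1 muscle left out the counts were 0 to 6 chain enzymes, 0 to 7 collagens, 1 to 11 receptors, 1 to 4 proteases and 0 to 4 other proteoglycans. Over all genes, 687 were called higher and 287 lower. The counts were 1159 and 1027 with the block, 1272 and 939 by DESeq2, and 1476 and 1399 by DESeq2 with the block. They were 994 and 842 by voom, and 314 to 1228 and 50 to 882 with 1 muscle left out. In the block, DESeq2 and voom fits more genes were called higher, yet these made up a smaller part of all calls. The cause of these differences was not tested. The fewest counts lay behind *Omd*, with 12 to 38 per muscle.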
